A study of Mus musculus with 93 samples.

Results

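Small nucleolar RNAs (snoRNAs) were represented in the expression tables by 121 gene rows, 0.550% of the 22016 rows that held a number in every cell. Members were the rows whose symbol begins with Snora or Snord followed by a digit, and each row that matched held numbers. By symbol, 37 rows were H/ACA snoRNAs (Snora) and 84 were C/D snoRNAs (Snord). They carried 109 distinct symbols, and 17 rows shared a symbol with another row.

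The cells came from the lungs of adult C57BL/6 mice carrying Tbx4cre and RosaTm, in which Cre made under Tbx4, a T-box gene of the lung mesenchyme, marks cells and their descendants. The 93 profiles were 54 labelled Tbx4 lineage+ and 39 labelled Tbx4 lineage-. Cells were sorted and then captured with the Fluidigm C1 system, and both groups came from the same genotype. The labels name no animal or chip, and the title and design text call the cells mesenchymal while the sort is given as epcam+ CD31- CD45- 7AAD-. The 2 pairs of lineage+ profiles that were nearly the same (Pearson r of 0.996 and 0.997, against at most 0.596 in any other pair) were averaged, which left 52 lineage+ and 39 lineage- cells. 1 lineage- well, cell 23, carries the word debris in its description and is counted here. Its snoRNA share was 0.0399%, and leaving it out moved no value past the limits used. Names of lineage+ profiles all start with 7m-Lung and those of lineage- profiles with Tbx4-2, with 29 capture sites named in both, and the meaning of these prefixes is not stated. Each group was taken as 1 sample, so differences between the groups have no replicate check and no p-value, and lineage cannot be told apart from animal, chip or preparation. Values are FPKM (fragments per kilobase and per 1000000 reads), and a row was called detected at 1 FPKM.

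snoRNAs are short non-coding RNAs of the nucleolus that guide chemical modification of ribosomal RNA. C/D snoRNAs, bound by Nop56, Nop58 and fibrillarin, guide methylation of the ribose, and H/ACA snoRNAs, bound by dyskerin, Nhp2, Nop10 and Gar1, guide conversion of uridine to pseudouridine. In mammals most are cut from introns of genes for ribosomal proteins, translation factors or non-coding RNAs, and the mature molecules lack the poly(A) tail on which SMARTer cDNA synthesis is usually primed.

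Of the 121 rows, 7 reached a detection of 10% of cells in either group, 5 of the H/ACA and 2 of the C/D class. Their sequences are shown because most values described here fall on them. They are the bases inside the bounds of each row, in the sense direction, from the GENCODE M21 transcripts (GRCm38). Snora81 lies at chr16:23110770-23110933 on the plus strand, Snora30 at chr7:127527897-127528003 plus, Snora31 at chr14:75847923-75848034 plus, Snora70 at chrX:74272492-74272620 plus, Snora41 at chr1:63179023-63179135 plus, Snord32a at chr7:45127383-45127463 minus and Snord17 at chr2:144265982-144266202 minus. Capitals mark the ACA or ANA box 3 bases before the end of an H/ACA snoRNA, and the TGATGA of the C box and CTGA of the D box of a C/D snoRNA.
Snora81: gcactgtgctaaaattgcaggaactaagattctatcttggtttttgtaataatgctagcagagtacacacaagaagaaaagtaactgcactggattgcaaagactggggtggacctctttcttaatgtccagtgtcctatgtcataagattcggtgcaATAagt
Snora30: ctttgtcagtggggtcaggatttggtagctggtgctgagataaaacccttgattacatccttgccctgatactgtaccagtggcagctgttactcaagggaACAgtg
Snora31: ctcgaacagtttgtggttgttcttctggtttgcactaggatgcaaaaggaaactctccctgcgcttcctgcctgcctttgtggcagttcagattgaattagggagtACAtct
Snora70: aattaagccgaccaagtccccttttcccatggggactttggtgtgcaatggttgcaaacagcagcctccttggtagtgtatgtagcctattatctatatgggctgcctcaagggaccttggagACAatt
Snora41: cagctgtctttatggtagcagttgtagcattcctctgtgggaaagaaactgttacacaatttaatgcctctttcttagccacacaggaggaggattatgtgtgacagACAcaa
Snord32a: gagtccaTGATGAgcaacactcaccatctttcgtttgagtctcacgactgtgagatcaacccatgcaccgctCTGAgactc
Snord17: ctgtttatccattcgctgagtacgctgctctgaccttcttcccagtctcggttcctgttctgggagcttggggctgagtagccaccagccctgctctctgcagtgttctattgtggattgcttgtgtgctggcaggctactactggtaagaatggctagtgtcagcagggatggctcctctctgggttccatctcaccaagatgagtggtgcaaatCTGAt

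Such a match is a description of letters on the sense strand. Among the 103 member rows with a sequence in their bounds, ANA stood 3 bases before the end in 27 of 35 H/ACA and 5 of 68 C/D rows, and ACA itself in 23 and 1. CTGA occurred within the last 20 bases of 67 of the 68 C/D and 4 of the 35 H/ACA rows. TGATGA occurred within the first 20 bases of 25 C/D and 0 H/ACA rows. Snora81 has the letters ATA at the box, and Snord17 has CTGA but no TGATGA in its first 20 bases.

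Detection followed the length of the row. Of the 121 rows, 64 were detected in no cell, 33 in 1 cell, 17 in 2 to 5 cells and 7 in more. None of the 20 rows under 56 bases was detected, against 10 of 31 rows of 56 to under 70 bases, 5 of 17 rows of 70 to under 90 bases, 16 of 20 rows of 90 to under 110 bases, 18 of 21 rows of 110 to under 130 bases and 8 of 12 longer rows. Rows detected at least once had a median length of 101 bases and those never detected one of 63.5 bases. H/ACA snoRNAs are longer as a class, and 26 of the 37 H/ACA rows (70.3%) were detected against 31 of the 84 C/D rows (36.9%). Within the range of 90 to under 130 bases that both classes fill, the counts were 21 of 24 H/ACA and 13 of 17 C/D rows. Of these C/D rows, 10 were the copies of Snord116 and Snord116l2 on chromosome 7, each listed at 13.8 FPKM in the same lineage- cell, which together come to 2.01 reads. These copies are 10 of the 13 detected C/D rows, so the counts do not show like detection of the classes at like length. Of the other C/D rows in this range, Snord16a, Snord22 and Snord7 were detected, and Snord23, Snord67, Snord89 and Snord8 were not. The 10 copies also count among the 33 rows detected in 1 cell, the 16 of 90 to under 110 bases and the 31 C/D rows.

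**Figure D1:**
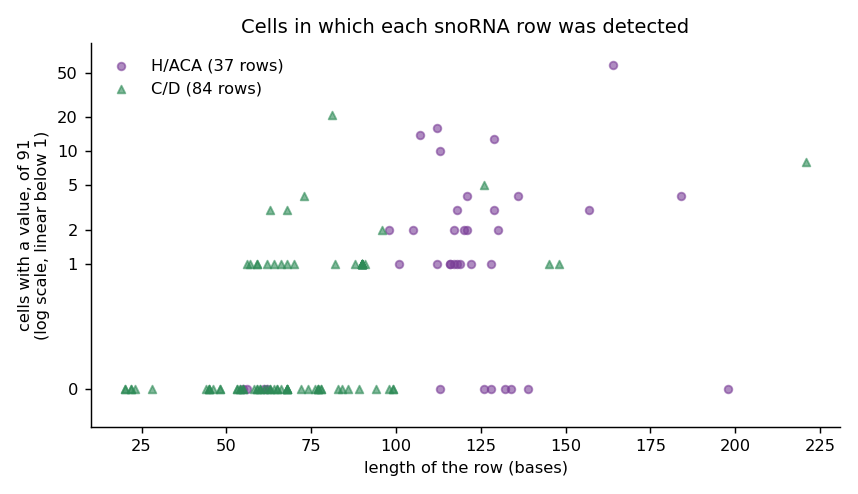
Number of the 91 cells in which each snoRNA row was detected (vertical axis, log scale and linear below 1) against the length of the row in bases, with circles for the 37 H/ACA and triangles for the 84 C/D rows. All 20 rows under 56 bases lie at 0, and Snora81, at 164 bases, lies highest with 24 lineage+ and 35 lineage- cells.

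The size of a value was tied to length as well. In each cell the FPKM of long genes with 1 annotated transcript fall in steps worth 1 read, which gave an estimate of the reads behind the scale, with a median of 7244360 per cell and a range of 2630270 to 11091700 in lineage+ and 58884 to 13489600 in lineage- cells. The labels state an average of 6 to 7 (in units of 1000000 reads) per library. With fragments of 200 ± 80 bases (mean ± SD) and none under 32 bases, 94 of the 96 snoRNA values under 5.5 reads came within 0.1 of a whole read. The limit of 32 bases was chosen after these values were seen. In 5 other non-coding RNA rows that were not used for that choice (Rmrp, Rnu11, Rnu12, Rpph1 and Vaultrc5), 27 of 27 such values came within 0.1 of a whole read.

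At the median depth, 1 read was worth 442 FPKM in a row of 60 bases, 125 FPKM at 81 bases, 36.8 FPKM at 112 bases, 9.31 FPKM at 164 bases and 0.106 FPKM in a transcript of 1500 bases. A level of 442 FPKM could therefore rest on 1 read. Over the 216 values above 0 in rows other than the Snord116 copies, counted in all 93 profiles, 52 (24.1%) stood for 1 read, 44 (20.4%) for 2 to 5 reads, 120 (55.6%) for more than 5 and 28 (13.0%) for more than 100. The median was 7.95 reads and the highest 613. Reads made by amplification without molecular identifiers are not independent molecules, and intervals given for shares of cells cover counting error only.

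**Figure D2:**
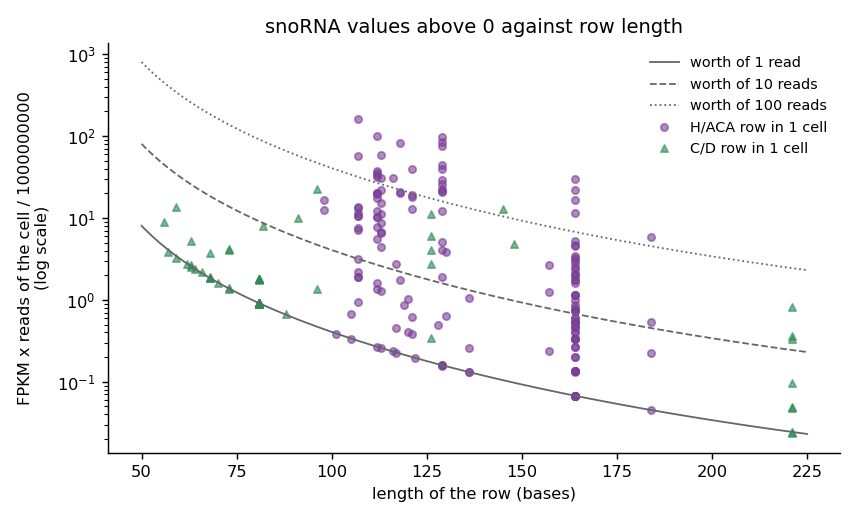
Each point is 1 snoRNA value above 0 in 1 profile, as FPKM multiplied by the estimated reads of the cell and divided by 1000000000 (log scale), against the length of the row in bases. The lines give the calculated worth of 1, 10 and 100 reads, and the 52 values that stand for 1 read lie along the 1-read line.

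The snoRNA share of a cell's total FPKM was alike at the median in both groups and differed in its upper tail. It ran from 0 through a median of 0.453% to 6.87% over the 52 lineage+ cells, and from 0 through a median of 0.445% to 22.7% over the 39 lineage- cells. The groups overlapped over the whole lineage+ range. Means were 0.932% and 2.20%, and the mean of the summed level was 2446 FPKM for lineage+ against 6009 FPKM for lineage-, which is -1.30 as a log2 ratio. This ratio was -0.024 over cells with at least 2000 detected genes (35 and 12 cells) and -0.56 over cells with at least 1000.

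The upper tail consisted of cells in which 1 row held most of the snoRNA signal. The highest share was in lineage- cell 22, where Snora81 at 38462 FPKM made up 98.2% of the snoRNA signal. The next, 20.1% in lineage- cell 11, was 97.1% Snora30 at 60481 FPKM. In lineage+ the highest share was in cell 4, where Snora31 at 10991 FPKM made up 98.3%. The top row held over 50% of the snoRNA FPKM in 41 of 52 lineage+ cells and 32 of 39 lineage- cells, and which row it was differed from cell to cell.

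Counted in reads, the share was far smaller than in FPKM. snoRNA rows held a median of 26.9 reads per lineage+ cell and 55.3 per lineage- cell, with highest values of 382 and 927. These were medians of 0.00151% and 0.00304% of the reads assigned to genes, and the FPKM share exceeded the read share by a median factor of 206 in lineage+ and 123 in lineage- cells that held any snoRNA read. Gene reads were computed with the median transcript length of 18879 genes, so these shares are approximate. H/ACA rows held 95.3% of the snoRNA reads in lineage+ and 94.4% in lineage- cells.

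A median of 2 snoRNA rows was detected per cell in both groups, with up to 6 in a lineage+ cell and up to 14 in a lineage- cell. The cell with 14 included the 10 Snord116 copies and had 5 with these counted as 1. Cells with no detected row numbered 10 of 52 for lineage+ (19.2%, exact 95% interval 9.63% to 32.5%) and 4 of 39 for lineage- (10.3%, 2.87% to 24.2%).

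Genes detected at 1 FPKM ranged from 812 to 3708 (median 2379) in lineage+ and from 227 to 2827 (median 1750) in lineage- cells. Across cells the snoRNA share had a Spearman rho of 0.07 with genes detected over 52 lineage+ cells and of -0.01 over 39 lineage- cells. The 2 measures come from the same libraries and share their depth. Among lineage- cells the median share was 1.14% in the 5 cells under 1000 genes, 0.345% in the 22 cells with 1000 to under 2000 genes and 0.657% in the 12 cells with more, and the highest shares in these bins were 22.7%, 9.50% and 2.10%. In the same bins of lineage+ cells the medians were 0.114% (2 cells), 0.482% (15 cells) and 0.496% (35 cells). Within the 12 lineage- cells of 2000 or more genes rho was -0.76, and within the 35 lineage+ cells of that bin it was 0.13. The number of rows detected had a rho of 0.25 and 0.22 with genes detected in lineage+ and lineage- cells.

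**Figure D3:**
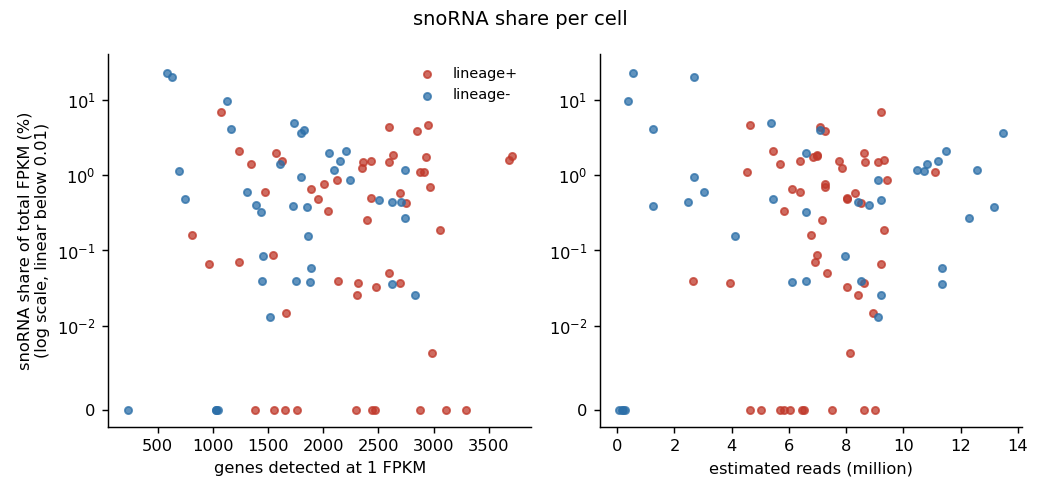
snoRNA share of total FPKM in each of the 91 cells (percent, log scale and linear below 0.01) against genes detected at 1 FPKM (left) and against the estimated reads in units of 1000000 (right), with 1 point per cell. The 3 highest shares, from 9.50% to 22.7%, belong to lineage- cells with 589, 628 and 1127 detected genes, and 4 lineage- cells at a share of 0 lie at the lowest depths.

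Of the 7 rows that reached 10% detection, 2 were at least 2-fold higher in the mean of lineage+ cells and 4 in that of lineage- cells. In summed reads per read sequenced, lineage+ over lineage-, Snord32a, 1 of these 4, had a ratio of 0.887. Snora70, not among them, had one of 0.429. Among all 7337 rows that passed the same filter, 30.4% were at least 2-fold higher in lineage+ and 22.8% in lineage-. For the 31 other short RNA rows past this filter the shares were 16.1% and 51.6%. As log2 of lineage+ over lineage-, the median ratio came to -1.13 over the 7 snoRNA rows, -1.00 over 31 other short RNA rows and 0.17 over all 7337. Passing the filter favours the group in which a row is high, so these counts describe 7 rows and not the family.

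Snora81, an H/ACA snoRNA in Eif4a2, was the most widely detected row. Eif4a2 encodes an RNA helicase of translation initiation, and the row lies in full within an exon of an annotated Eif4a2 transcript. Its level in lineage- cells ran from 0 through a median of 104 FPKM to 38462 FPKM, and in lineage+ cells from 0 through a median of 0 to 424 FPKM. Detecting cells numbered 35 of 39 for lineage- (89.7%, exact 95% interval 75.8% to 97.1%) and 24 of 52 for lineage+ (46.2%, 32.2% to 60.5%). The intervals of these shares did not overlap, while the levels of the detecting cells did. These intervals cover the counting of cells only and not the spread between animals or chips. Snora81 was also named by its level, detection and ratio in these same cells, so the gap is a description of them. Means were 2196 and 45.8 FPKM, a log2 ratio of -5.55, and lineage- cell 22 alone held 44.9% of the lineage- sum.

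In reads, Snora81 exceeded 20 reads in 15 of 39 lineage- cells and in 4 of 52 lineage+ cells. Detecting cells held a median of 17.0 reads in lineage- and 4.99 in lineage+. All 31 lineage- cells with at least 2000000 estimated reads had Snora81, with 0.992 to 444 reads and a median of 11.9, and the 4 lineage- cells without it were among the 8 cells under that depth. All 52 lineage+ cells were above that depth, and 28 of them had no Snora81 read. The log2 ratio over cells above that depth was -3.28, and it was -3.02 once the top cell on either side was left out.

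Within bins of detected genes the contrast was also seen. With 2000 or more genes, 12 of 12 lineage- and 20 of 35 lineage+ cells held Snora81, with medians of 66.1 and 9.59 FPKM. Among cells with 1000 to under 2000 genes it was present in 19 of 22 and 4 of 15, with medians of 117 and 0 FPKM. The log2 ratio of the means was -3.56 over cells with at least 2000 genes, where lineage- cell 6 at 4537 FPKM held 78.6% of the lineage- sum. With the top cell on either side left out it was -1.94 (means of 28.5 and 112 FPKM). Depth was not matched in these bins. Median estimated reads were 9848500 in lineage- and 7328250 in lineage+ cells with 2000 or more genes. In cells with 1000 to under 2000 genes they were 6351150 and 6456540.

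The host gene lay the other way, though its means differed by less than 2-fold (log2 ratio of 0.44). Eif4a2 reached 1 FPKM in 38 of the 52 lineage+ and 22 of the 39 lineage- cells, with medians of 25.6 and 1.36 FPKM and means of 75.3 and 55.1 FPKM. Snora81 was found in all 22 lineage- cells with Eif4a2 and in 13 of the 17 without it, where its median was 135 FPKM. The 4 lineage- cells without Snora81 held only 58884 to 281838 estimated reads, and Eif4a2 was at 0 in each. In lineage+ it was found in 19 of 38 cells with Eif4a2 and in 5 of 14 without it. Spearman rho between row and host was 0.12 over lineage+ and 0.08 over lineage- cells. The other snoRNA row in Eif4a2, Snord2 of 68 bases, was detected in no cell.

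**Figure D4:**
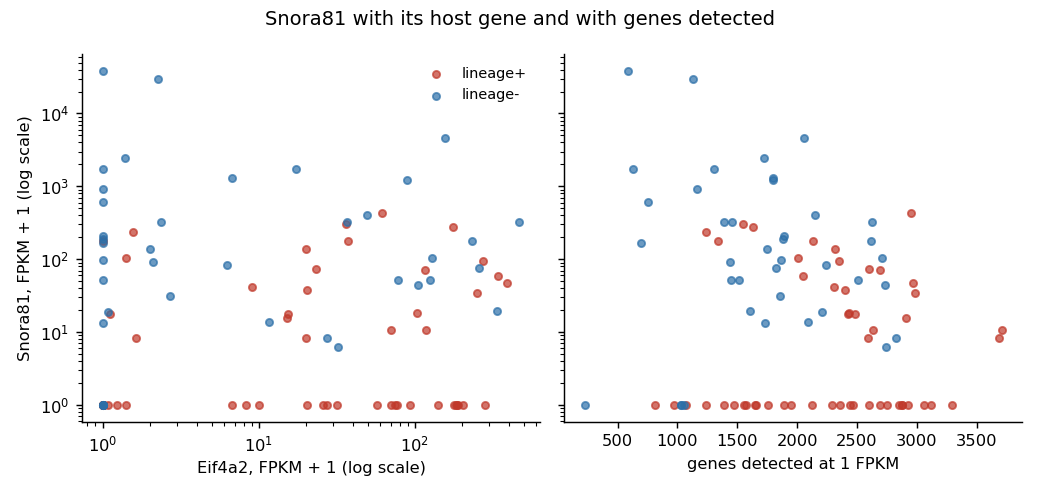
Snora81 (FPKM + 1, log scale) in each of the 91 cells against its host Eif4a2 (FPKM + 1, log scale, left) and against genes detected at 1 FPKM (right). Lineage- cells reach 38462 FPKM, including cells where Eif4a2 is at 0, and 28 of 52 lineage+ cells lie at 0 for Snora81.

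Snora30, also at least 2-fold higher in the lineage- mean, is an intronic H/ACA snoRNA of Srcap, which encodes a chromatin remodelling ATPase. Values above 0 were seen in 9 of the 39 lineage- cells (23.1%, exact 95% limits 11.1% to 39.3%), at 583 to 60481 FPKM with a median of 1220 FPKM. They were seen in 5 of 52 lineage+ cells (9.62%, 3.20% to 21.0%), at 100 to 1303 FPKM with a median of 281 FPKM. The intervals, which again cover the counting of cells only, overlapped, as did the levels. Means were 2078 and 57.6 FPKM, and lineage- cell 11 held 74.6% of the lineage- sum. Without the highest cell of each group the log2 ratio of -5.15 was -3.99, and over cells with at least 2000 genes it was -0.67.

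Snora31 and Snora41 were the 2 rows higher in lineage+. Snora31 lies in an intron of Tpt1, which encodes the translationally controlled tumour protein. Detecting cells were 13 of 52 lineage+ (25.0%, exact 95% interval 14.0% to 38.9%), at 188 to 10991 FPKM and a median of 74.2 reads. They were 3 of 39 lineage- (7.69%, 1.62% to 20.9%), at 152 to 3143 FPKM. The groups overlapped, with means of 765 and 137 FPKM and a log2 ratio of 2.47, which was 0.59 over cells with at least 2000 genes. Its host Tpt1 was detected in 51 of 52 and 35 of 39 cells, so most cells with the host had no Snora31 read, and rho between them was 0.06 over lineage+ cells.

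Snora41 lies in an intron of Eef1b2, which encodes a subunit of the translation elongation factor exchange complex. Its detecting cells were 9 of 52 lineage+ (17.3%, exact 95% interval 8.23% to 30.3%), at 201 to 8313 FPKM with a median of 33.8 reads. In lineage- there was 1 such cell of 39 (2.56%, 0.0649% to 13.5%), at 18.9 FPKM, which is 1 read. Means were 366 and 0.485 FPKM. Summed reads, 570 against 1, gave a ratio per read sequenced of 397 with an exact counting interval of 71.0 to 15722. That interval covers the counting of reads only, amplified reads are not independent, and lineage+ cell 41 alone held 43.6% of the lineage+ FPKM sum. Host and row differed in direction by their means, since Eef1b2 averaged 61.3 FPKM for lineage+ (31 of 52 cells) against 103 FPKM for lineage- (23 of 39). The log2 ratio of the host, -0.74, was under 2-fold. All 9 lineage+ cells with Snora41 had Eef1b2, and rho was 0.38.

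Snora70 lies within an exon of an annotated transcript of Rpl10, a ribosomal protein gene on the X chromosome. Its group means in FPKM did not differ 2-fold. Its 9 detecting lineage+ cells (17.3%) held 265 to 9487 FPKM and its 4 lineage- cells (10.3%) 2769 to 10750 FPKM. Means were 510 and 719 FPKM, a log2 ratio of -0.49. Summed reads, 1106 against 1798, gave a ratio per read sequenced of 0.429, which is past 2-fold. Its exact interval of 0.398 to 0.462 covers the counting of reads only, and amplified reads are not independent. Where present it was read often, with medians of 131 and 502 reads, and no cell had fewer than 12.0 reads. Rpl10 was detected in every cell that held Snora70, and also in 39 lineage+ and 30 lineage- cells that did not.

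**Figure D5:**
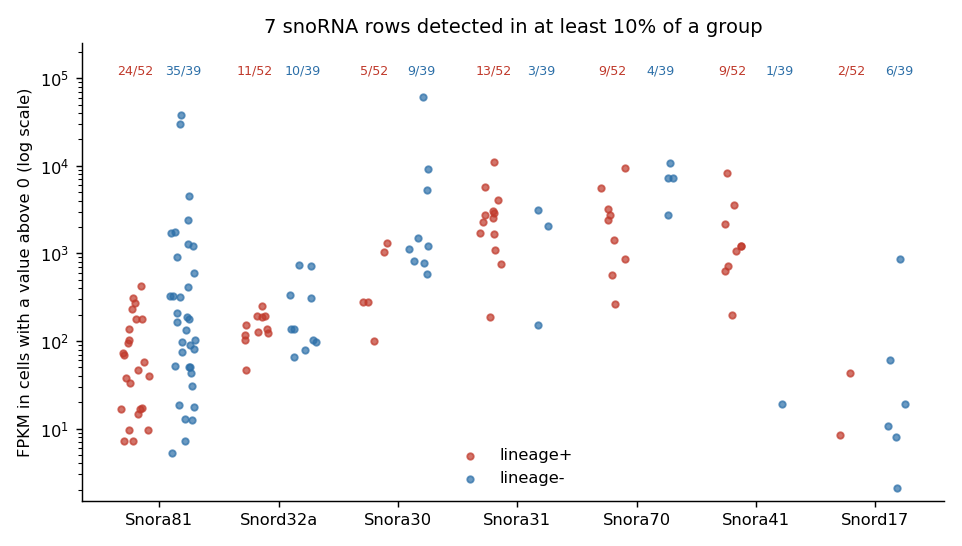
FPKM (log scale) of the 7 snoRNA rows detected in at least 10% of a group, in the cells with a value above 0, with 1 point per cell and the number of detecting cells over all cells of the group printed above. Snora81 spans 5.33 to 38462 FPKM in lineage- cells, while the Snord32a values of both groups lie within 47.1 to 743 FPKM.

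Snord32a, 1 of the C/D snoRNAs in introns of the ribosomal protein gene Rpl13a, was detected about as often in both groups. The Rpl13a snoRNAs are known from mouse and hamster cells for a role in the response to lipid overload. The counts were 11 of 52 lineage+ (21.2%, exact 95% interval 11.1% to 34.7%) and 10 of 39 lineage- (25.6%, 13.0% to 42.1%). Its values ran from 47.1 to 248 FPKM in lineage+ and from 66.4 to 743 FPKM in lineage- cells, with medians of 136 FPKM in both, and no cell held more than 2 reads. Means were 31.3 and 69.9 FPKM, a log2 ratio of -1.13, and in recovered reads per 1000000 reads of the cell the means were 0.0347 and 0.0772. Summed over cells, 14 reads against 11 gave 0.0372 and 0.0419 per 1000000 reads sequenced. That is a ratio of 0.887 (exact interval 0.374 to 2.16, counting of reads only), so the 2-fold difference of means was not seen in summed reads. The 4 rows in Rpl13a were Snord32a, Snord33, Snord34 and Snord35a, and of these only Snord32a and, in 1 cell, Snord33 were detected, although Rpl13a was detected in 51 of 52 and 34 of 39 cells.

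Snord17, the longest row with 221 bases, lies in an intron of Snx5, a sorting nexin gene of endosomes. The row had values in 6 of the 39 lineage- cells (15.4%, exact 95% limits 5.86% to 30.5%) at 2.12 to 863 FPKM, and in 2 of the 52 lineage+ (3.85%, 0.469% to 13.2%) at 8.52 and 43.6 FPKM. Lineage- cell 27 held 89.5% of the lineage- sum, and it was among the cells under 2000000 reads. The log2 ratio of -3.68 was -0.86 over cells above that depth and 0.25 over cells with at least 2000 genes.

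The other rows named by level or detection were seen in 1 to 5 cells each. Snora34, in an intron of Kansl2, a chromatin regulator gene, reached 15436 FPKM from 376 reads in lineage- cell 18 and was at 0 in all 52 lineage+ cells, an exact upper 95% limit of 6.85% on the share of cells with a read. Snora28 lies within an exon of an annotated transcript of the initiation factor gene Eif5. It was at 1908, 2821 and 7248 FPKM in 3 lineage+ cells and at 1119 FPKM in 1 lineage- cell. Snora65, within an exon of an annotated Rpl12 transcript, was at 2266 and 2424 FPKM in 2 lineage+ cells and at 139 FPKM in 1 lineage- cell. Snord49b, in an intron of the non-coding gene 2410006H16Rik, was at 356 FPKM in 1 lineage+ cell and at 587 and 2150 FPKM in 2 lineage- cells, and none of these rested on more than 2.01 reads.

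Snord22, in Snhg1, was detected in 4 lineage+ cells and 1 lineage- cell. Snora23 in Ipo7 and Snora16a in Snhg12 were each detected in 2 cells of either group. Neither of the 2 lineage+ nor the 2 lineage- cells with Snora16a had Snhg12 at 1 FPKM, and Snora23 occurred with Ipo7 in 1 of its 4 cells.

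By position in the tables, 100 of the 121 rows lay inside another gene row, and 116 lay inside a GENCODE gene of the same strand. Ribosomal protein genes held 31 rows, of which 16 were detected, translation factor genes 7 rows with 3 detected, and Snhg, Gas5 or Dancr genes 13 rows with 7 detected, against 31 of 70 rows elsewhere. The 31 detected elsewhere include the 10 Snord116 and Snord116l2 copies, which together come to 2.01 reads in 1 cell. Of the 45 rows that lie in full within an annotated host exon 24 were detected, and of the other 76 rows 33 were, most of the Snord116 copies among them. A host detected in most cells could lack any detected row: Rpl3 was detected in 46 of 52 and 29 of 39 cells and its rows Snord43 and Snord83b in none. Both rows in Rps3, Snord15a and Snord15b of 148 and 145 bases, were each detected in 1 lineage- cell.

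The host rows numbered 74. Of the 62 hosts detected in at least 10% of a group, 8 (12.9%) were at least 2-fold higher in lineage+ and 7 (11.3%) in lineage-, beside 30.4% and 22.8% of all rows tested, with a median log2 ratio of 0.16 beside 0.17 over all rows tested. Of the long non-coding hosts listed, 15 of 27 were found under the listed symbol and 11 were tested. Of these, 4 were at least 2-fold higher in lineage+ (Snhg5, Snhg6, Snhg8 and Snhg12) and 3 in lineage- (Snhg3, Snhg9 and Snhg11). Zfas1 and Snhg18 were present under older symbols, 1500012F01Rik and 0610007N19Rik, and are outside these counts. Both passed the filter, with log2 ratios of -2.90 and 3.83. Gas5, host of many C/D snoRNAs, reached 1 FPKM in 42 lineage+ and 20 lineage- cells with means of 54.2 and 46.0 FPKM.

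Among genes for snoRNP core proteins, 8 of 9 listed symbols were measured and 7 tested, of which 1 was at least 2-fold higher in lineage+ and 3 (Nop56, Fbl and Nhp2) in lineage-. The symbol not found, Snu13, is another name of Nhp2l1, which was measured and tested. Nop58, a core protein of C/D particles, reached 1 FPKM in 35 of the 52 lineage+ and 7 of the 39 lineage- cells, with means of 65.2 and 0.801 FPKM, and neither Snord11 nor Snord70 in its introns was detected. Fbl, the methyltransferase fibrillarin, had means of 15.4 and 36.1 FPKM, and Dkc1, the pseudouridine synthase dyskerin, 7.22 and 5.00 FPKM. Of the 11 assembly factors 8 were tested, with 3 at least 2-fold higher in lineage+ (Ruvbl1, Znhit3 and Nolc1) and 0 in lineage-. These small counts, and those of the core proteins and long non-coding hosts, stand beside the same 30.4% and 22.8% over all rows tested.

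The groups differed in much besides snoRNAs. In lineage+ 9 of 9 tested fibroblast markers were at least 2-fold higher, and in lineage- all tested alveolar type 2 (7), alveolar type 1 (4), airway (3), general epithelial (4) and immune (7) markers were. Of 6 mesothelial markers 5 were higher in lineage+ and 1 in lineage-, and 1 smooth muscle and pericyte and 1 endothelial marker were tested, both higher in lineage+, with Pecam1 at 0 in every cell of either group. The summed immune markers ran from 0 through 2230 to 46111 FPKM (lowest, median, highest) in lineage- and from 0 through 0 to 318 FPKM in lineage+ cells, with Cd52 at 0 in every lineage+ cell. The summed fibroblast markers ran from 1066 through 15892 to 60309 FPKM in lineage+ and from 0 through 7.56 to 24583 FPKM in lineage- cells. The part of these differences in the Snora81 contrast was not tested.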

How the data were processed

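Per the labels' protocols, cDNA was made on the C1 chip with a SMARTer kit and libraries with Nextera XT, sequenced as single-end reads of 75 bases, and no molecular identifiers are mentioned. The deposited values are FPKM, 1 table per group. The unit is inferred from values and layout, since no label or header names it. Bowtie 1.1.1 and RSEM 1.2.20 appear in the submitters' processing notes, along with 2 builds, mm9 and GRCm38. Of 19783 symbols shared with GENCODE M21 (GRCm38), 99.4% overlapped the annotated gene. Starts are printed with 1 added to the file's start.

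Of 23846 gene rows, 1830 held no number and were not used. Near-identical profiles (Pearson r above 0.9) were averaged. The level of a row was its mean over all deposited cells of a group, ratios were taken after adding 1 FPKM, which understates the difference of low rows, and rows detected in at least 10% of either group entered fold counts. A ratio past 2-fold was counted. Intervals are exact Clopper-Pearson at 95%. Genes detected were counted over 21285 symbols that occur once. Doublets were not called.

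Reads were recovered from FPKM as value × depth × effective length / 1000000000, with depth the most common value of 1000000000 / (FPKM × effective length) over 3241 genes with 1 GENCODE transcript of at least 800 bases. The depth is that of the FPKM denominator: genes accounted for a median of 27.1% of it in lineage+ and 27.5% in lineage- cells. The procedure was tested on simulated data, and the depth of any given cell is approximate. Hosts are longer rows whose locus holds the snoRNA's. The sources used here do not state how reads shared by a snoRNA and its host were divided, so the values of both are uncertain.

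Rows were named by level (10 highest), by detection (10 most) and by ratio (6 highest and 6 lowest among those past the filter). The members and gene lists were chosen with earlier results of these data known. Figures were drawn with matplotlib 3.10.9. Statistics used scipy 1.17.1 and pandas 2.3.3, with numpy 2.4.6 under Python 3.11.15.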

Additional observations from a re-analysis of the deposited data

How the results depend on the processing

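No paired analysis was possible because no result comes from a test and cell numbers only name cells. A value was taken as moved where it differed by over 1.5-fold, or by over 0.1 for a correlation. The summed log2 ratio was negative in all 13 settings. It was -0.56 over cells with at least 1000 genes, -0.024 over cells with at least 2000 genes and -2.04 in recovered reads per 1000000 reads, an alternative chosen after seeing the data in which 1 was added, so that differences of rows far below 1 are muted. The Snora81 ratios without the highest cell among cells with at least 2000 genes or 2000000 reads were added likewise. The median share was 0.162% in lineage+ and 0.251% in lineage- without the row with the highest mean in each group. As a mean over cells it was 0.932% and 2.20%, and as a share of recovered reads in the FPKM denominator 0.000423% and 0.000689%. The rank correlation of share with genes detected in lineage- cells was 0.13 over cells with at least 1000 genes, -0.76 over cells with at least 2000, 0.10 without the highest rows and -0.13 over cells with at least 2000000 estimated reads, which was also chosen after seeing the data. The number of rows 2-fold higher in lineage+ was 1 over cells with at least 2000 genes. With no filter on detection 18 rows were higher in lineage+ and 23 in lineage-, and with a filter of 25% the counts were 1 and 2. No share over all rows is given at these filters, so the counts describe these rows only. Without a filter they include rows detected in 1 cell, such as Snora34. On means of log2 values 2 rows were higher in lineage-.

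Reversed log2 ratios of rows over cells with at least 2000 genes were 3.48 for Snord49b, 0.25 for Snord17 and 2.28 for Snora16a. Snora16a was also reversed without the highest cell of each group (0.47) and over cells with at least 2000000 reads (1.61). The cause of these differences was not tested. The medians of rows detected per cell stayed within 1.5-fold under every setting run. No row under 56 bases had a value above 0, and at 60 bases 1 read already stood for 442 FPKM at the median depth, so lower levels of such rows were not measurable here. Cells of 1 group come from an unknown number of animals, so no interval here covers the spread between animals.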
